A study of Mus musculus with 24 samples.

Results

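The comparison described here is that of mouse liver RNA at 6 h against 3 h of feeding on an unchanged diet. Its members are the 12 livers of the Control (Con) arm, 6 taken at 6 h (Con 6 h) and 6 at 3 h (Con 3 h), of 24 livers in the series. All were from male C57BL/6J mice aged 2 months. They had been adapted to a reverse light cycle and to food being taken away while the lights were on. Con mice ate a diet of elemental amino acids with 0.86% methionine before and during the test, so the diet was the same at both times. The other 12 mice (MR 6 h and MR 3 h, 6 mice each) were switched to another diet at lights off. It held 0.17% methionine and more glutamic acid than the Con diet. These mice serve below only for the spread between mice and to set the same hours beside. The hours were counted from lights off, when food was given back, so time since feeding and hour of the dark phase cannot be told apart. Each liver gave 1 library of 3′-end RNA tags, and each mouse was killed at 1 time point, so mice were separate animals and a change is one between groups.

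The liver of a nocturnal mouse changes its RNA through the night under 2 inputs. A molecular clock runs in each hepatocyte: CLOCK and ARNTL (BMAL1) switch on Per, Cry, Nr1d, Dbp, Tef and Hlf genes through E-box DNA, PER and CRY proteins then shut CLOCK and ARNTL off, and NR1D and ROR proteins compete for ROR elements that control Arntl. Food adds signals of its own: insulin holds FOXO1 out of the nucleus and drives SREBP-dependent lipid synthesis, protein intake loads the secretory pathway, and body temperature and heat shock factor activity follow activity and meals. Early in the night the liver makes bile acids, secretes protein and stores glycogen, and as a meal wears off it turns towards releasing glucose and fat.

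A level is in units of the table that the authors deposited, in which every library had been scaled to nearly the same sum (991702 to 995314 units), and was further divided here by a TMM factor between libraries. The table holds 9049 genes. Because all libraries had been brought to 1 total, the depth of sequencing behind a value is unknown, and fold changes, on the log2(level + 1) scale, understate the change of genes at a few units. Whole liver was used, so fewer cells of a type and less RNA per cell cannot be told apart. Gene positions are RefSeq's on GRCm38.p6.

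Between Con 6 h and Con 3 h, 922 genes were higher and 864 lower past a Benjamini-Hochberg adjusted p of 0.05 in limma, which are 10.2% and 9.55% of the genes tested. Most of these changes were small: 36 genes were higher and 22 lower by a log2 fold change of 1 or more (0.641% together). Every Con 6 h mouse lay above every Con 3 h mouse for 298 genes (3.29%) and below for 275 (3.04%), together 6.33% of the genes tested. A gene with no overlap between the groups always has p = 0.00216 in the exact two-sided permutation test over the 12 mice. That is the smallest p that 6 against 6 mice allow, and it was not adjusted over genes. Deposited values were whole numbers, so at low levels a gap can lie between equal values that were scaled differently. When the spread was estimated from the 12 Con livers alone, 564 genes were higher and 587 lower.

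Mouse 4238 of the Con 6 h group stood apart from all others, so counts are given with and without it. Its median correlation with the other Con 6 h livers was 0.962, against 0.987 to 0.991 for the other 11 Con livers with their own groups. Of 7777 genes with a mean of at least 5 units, it was at least 2-fold above the next mouse of its group in 84 and at least 2-fold below in 104, while no other Con mouse reached more than 7 and 5. Only 2 genes were listed at 0 in it, against 14 to 19 in the other 11. On the first principal component, which separated the Con 6 h from the Con 3 h livers, it lay with its labelled group. Mouse 4238 lay alone on the second component, at -37.4 against -4.39 to 10.2 for the rest. Without it, 1114 genes were higher and 974 lower (12.3% and 10.8%). Of the 1786 genes called with it, 1594 were also called without it. For most gene lists below, the brackets after a count give the shares of members called higher and lower, to be set beside 10.2% and 9.55% of all genes, then the 2 counts without mouse 4238, then their ranges when each Con mouse was left out in turn (leave-one-out). With the Con livers alone, no list had more calls in either direction.

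**Figure D1:**
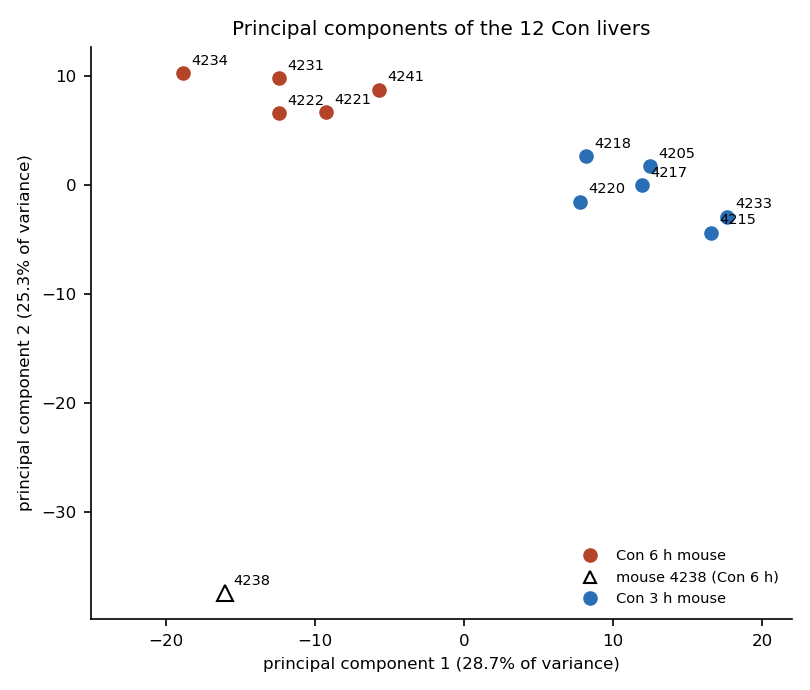
Principal components of log2(level + 1) over all 9049 genes in the 12 Con livers; each point is 1 liver with its mouse number, and the axes give the share of the variance (28.7% and 25.3%). The 2 times separate along the first component, and mouse 4238 (triangle) lies alone on the second at -37.4.

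Among the genes in which mouse 4238 lay farthest from its group were several that differ between male and female mouse liver. Major urinary proteins are pheromone carriers made in quantity by male liver, and their near-identical genes share reads, so single Mup values are uncertain. Mup7_1 was at 368 units in mouse 4238, against 8952 to 14916 units in the other Con 6 h mice and 5832 to 21977 units in Con 3 h mice. Mup19_1 was at 12.9 units there, against 466 to 757 units and 498 to 641 units in the same order. Mup1, Mup11, Mup12 and Mup17 were low in the same way. Elovl3, a fatty acid elongase of male liver, was at 59.7 units in mouse 4238, against 729.7 to 935 units in the other Con 6 h mice and 135 to 351 units in Con 3 h mice. Serpina12 (vaspin) was at 2.76 units there and at 37.3 to 69.6 units in the other Con 6 h mice. Going the other way, Cyp2a4, a P450 more abundant in female mouse liver, was at 259.9 units in mouse 4238 and at 0 to 1.03 units in the others, and Ccnd1 (cyclin D1) was at 88.2 against 4.15 to 8.21 units. Looked at after their values were seen, the sex-biased P450 genes Cyp4a12a (52.4 against 141 to 269 units, male) and Cyp2b9 (42.2 against 1.01 to 10.3 units, female) departed in the same sense. The Y-linked gene Ddx3y was at 41.3 units in this mouse and at 29.7 to 42.1 units in the other Con 6 h mice. No other label sets this mouse apart, and the cause was not tested.

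**Figure D2:**
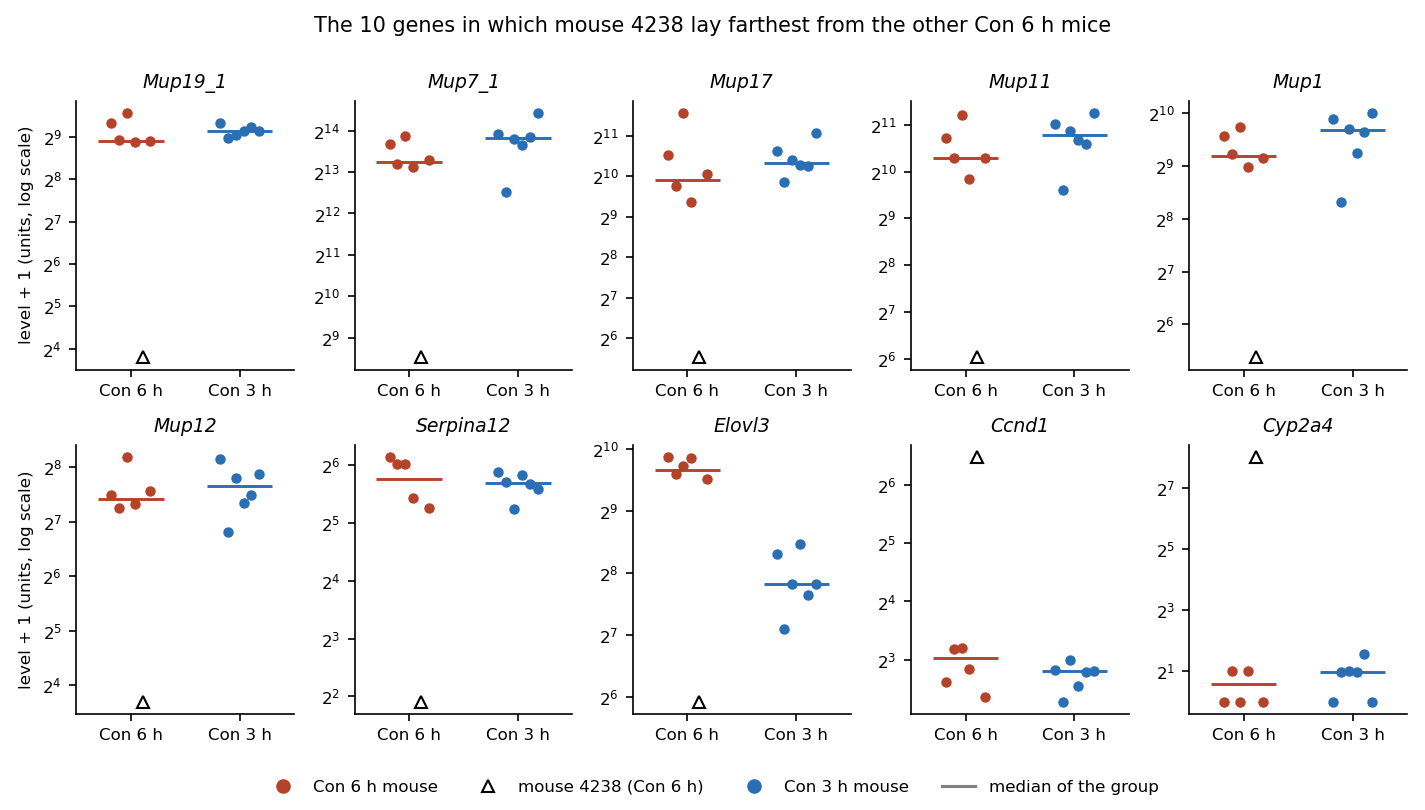
Level + 1 (log scale) in each Con mouse of the 10 genes in which mouse 4238 (triangle) lay farthest from the other Con 6 h mice; lines are group medians. The triangle is far below the other mice for 8 genes and far above for Ccnd1 and Cyp2a4, while the other Con 6 h mice and the Con 3 h mice overlap except for Elovl3.

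Core clock genes differed between the 2 Con times in both directions. Of 16 clock genes measured, 5 were higher and 5 lower at Con 6 h (31.2% in each direction, against 10.2% and 9.55% of all genes), and 6 were higher and 5 lower without mouse 4238. The genes that fell were the repressors Nr1d2 and Per2 and the PAR bZIP factors Tef, Dbp and Hlf. Those that rose included Arntl and the repressor Cry1. In 9 of the 10 genes called, the groups did not overlap. Over all 9049 genes, called or not, the groups did not overlap for 6.33%.

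Nr1d2 (chr14:18204056-18239106), which encodes the heme-sensing repressor REV-ERBβ, was at 6.14 to 11.4 units (median 9.67) at Con 6 h, against 19.7 to 28.96 units (median 25.1) at Con 3 h (log2 fold change -1.39 ± 0.16 (SE), limma adjusted p = 4.14e-06). All 6 Con 6 h mice were below all Con 3 h mice, and the level fell 2.63-fold. Per2 (chr1:91415977-91459351), a core repressor, was at 11.3 to 23.8 units (median 22.7) at Con 6 h, against 36.1 to 42.95 units (median 39.6) at Con 3 h (log2 fold change -0.92 ± 0.12 (SE), limma adjusted p = 1.77e-05). Its lowest Con 6 h mouse was well under the other 5, which lay close together. The PAR bZIP factors bind D-box DNA of detoxification and metabolic genes. Tef was at 34.9 to 51.8 units (median 41.3) at Con 6 h, against 64.1 to 74.3 units (median 71.9) at Con 3 h (log2 fold change -0.75 ± 0.09 (SE), limma adjusted p = 1.03e-05). Dbp was low in all mice, at 2.02 to 3.11 units (median 2.41) at Con 6 h, against 3.90 to 5.96 units (median 4.54) at Con 3 h (log2 fold change -0.72 ± 0.16 (SE), limma adjusted p = 0.0026), and Hlf was at 19.3 to 27.99 units (median 24.1) at Con 6 h, against 30.1 to 36.1 units (median 32.7) at Con 3 h (log2 fold change -0.43 ± 0.07 (SE), limma adjusted p = 1.72e-04). None of these 3 overlapped between times.

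Arntl (chr7:113178471-113314126), the CLOCK partner whose level runs opposite to Nr1d genes, was at 11.9 to 18.5 units (median 15.9) at Con 6 h, against 6.95 to 9.76 units (median 8.45) at Con 3 h (log2 fold change 0.82 ± 0.11 (SE), limma adjusted p = 1.61e-05). Cry1 (chr10:85131700-85185054), the late-acting repressor, was at 34.9 to 46.5 units (median 43.05) at Con 6 h, against 26.8 to 32.2 units (median 29.3) at Con 3 h (log2 fold change 0.51 ± 0.08 (SE), limma adjusted p = 8.14e-05). In both, mouse 4238 was the lowest of the Con 6 h mice yet above every Con 3 h mouse. Rora, an activator at ROR elements, was at 11.9 to 18.5 units (median 15.5) at Con 6 h, against 9.03 to 11.7 units (median 9.79) at Con 3 h (log2 fold change 0.52 ± 0.12 (SE), limma adjusted p = 0.0032), with no overlap. Nfil3, the repressor that opposes the PAR bZIP factors, passed the threshold narrowly (log2 fold change 0.34 ± 0.12 (SE), limma adjusted p = 0.042), and the call was lost when mouse 4215, 4217, 4218, 4221, 4222, 4231 or 4234 was left out singly (highest limma adjusted p = 0.12). Members that did not pass included Clock (-0.14), Bhlhe40 (-0.27), Csnk1d (0.11), Cry2 (-0.06) and Per1 (-0.02), all as log2 fold changes.

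RefSeq promoter windows, from 250 bases before to 50 after a gene's start, were searched on both strands for the letters of the clock's DNA elements. The E-box CACGTG occurred in a window of 3 of the 11 clock genes with a window (Cry1, Per1 and Tef), against 12.3% of the 7286 genes tested that have one, and the ROR element TAGGTCA in 2 of 11 (Arntl and Nfil3), against 2.59%. Those 2 were both higher at Con 6 h. Of the 3 with an E-box, Cry1 was higher, Tef lower and Per1 not called. Cry1 and Tef are shown for their E-box and Arntl for its ROR element (capitals), 5′ to 3′ on the gene's strand (Cry1 chr10:85185005-85185304, minus strand; Tef chr15:81802423-81802722, plus strand; Arntl chr7:113207261-113207560, plus strand; GRCm38.p6). A match is only a run of letters, not evidence that a factor binds there.
Cry1: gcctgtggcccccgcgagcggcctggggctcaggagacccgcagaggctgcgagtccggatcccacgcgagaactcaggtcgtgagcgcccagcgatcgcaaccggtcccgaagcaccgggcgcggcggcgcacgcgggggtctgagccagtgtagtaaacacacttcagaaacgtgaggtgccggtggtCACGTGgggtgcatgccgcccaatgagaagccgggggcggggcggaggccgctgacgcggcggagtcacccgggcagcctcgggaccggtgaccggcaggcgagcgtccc
Tef: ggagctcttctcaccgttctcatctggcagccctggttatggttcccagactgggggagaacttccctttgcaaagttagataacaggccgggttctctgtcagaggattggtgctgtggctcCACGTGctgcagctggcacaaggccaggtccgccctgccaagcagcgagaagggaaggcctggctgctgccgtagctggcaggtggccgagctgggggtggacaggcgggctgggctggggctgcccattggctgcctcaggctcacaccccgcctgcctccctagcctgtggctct
Arntl: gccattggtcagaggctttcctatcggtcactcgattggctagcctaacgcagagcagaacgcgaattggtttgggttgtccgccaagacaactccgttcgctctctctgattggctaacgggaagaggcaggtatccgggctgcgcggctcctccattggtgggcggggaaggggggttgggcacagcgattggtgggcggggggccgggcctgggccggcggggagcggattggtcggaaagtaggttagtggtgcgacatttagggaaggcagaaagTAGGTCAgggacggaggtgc

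**Figure D3:**
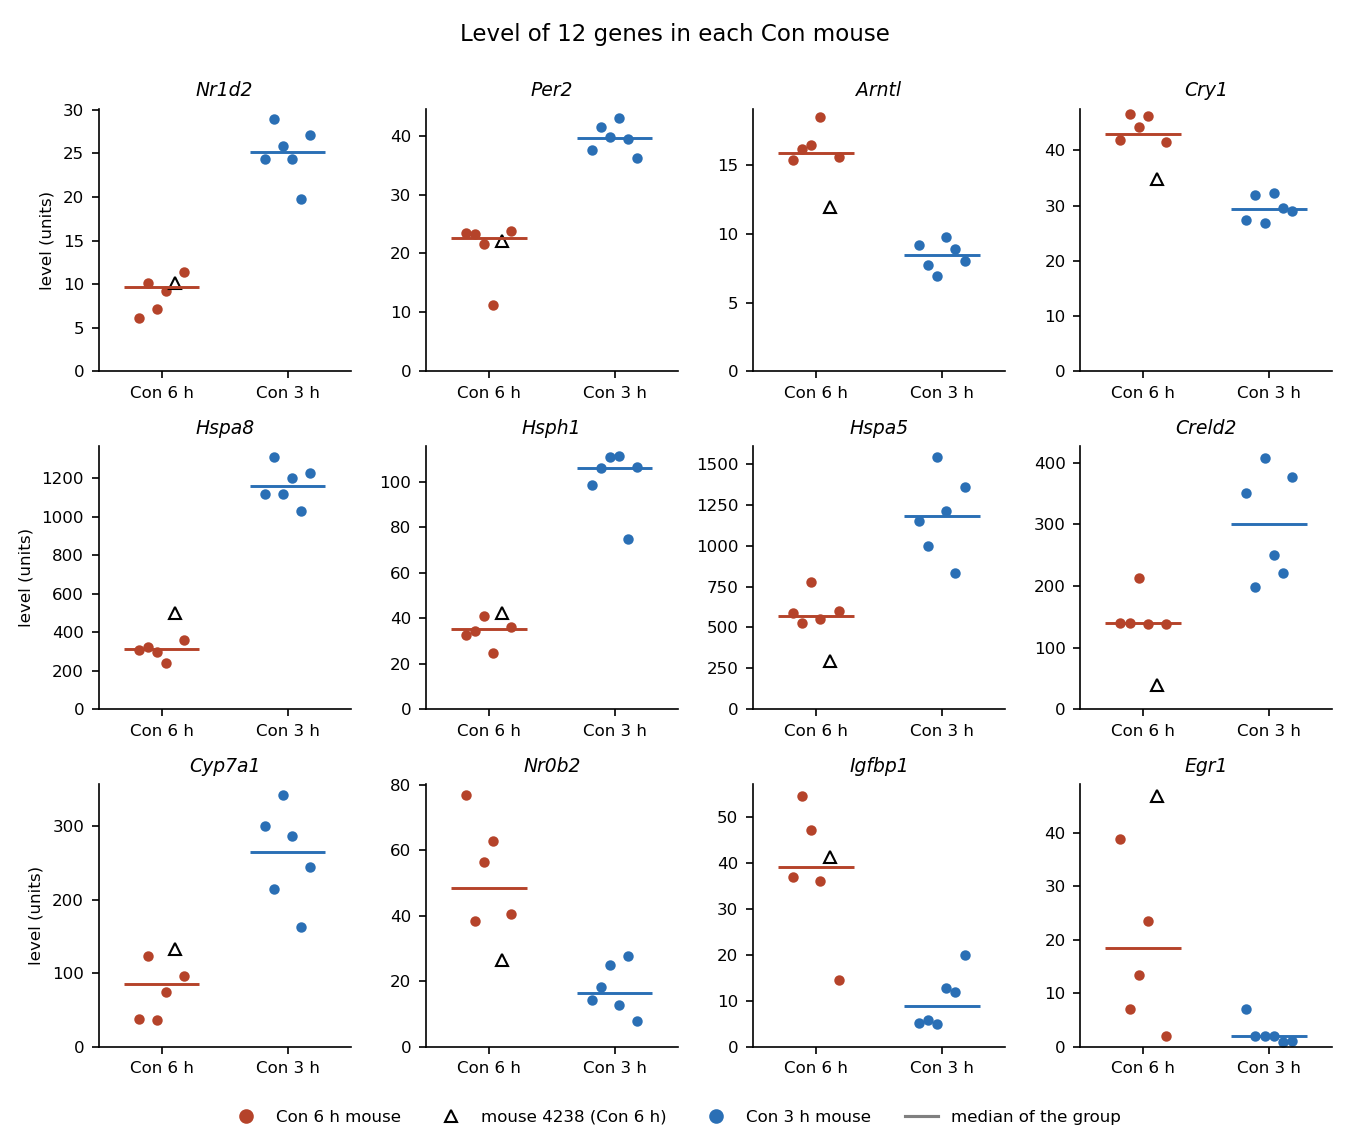
Level in units of 12 genes in each Con mouse, Con 6 h beside Con 3 h; points are mice, the triangle is mouse 4238 and lines are group medians. The groups do not overlap for Nr1d2, Per2, Arntl, Cry1, Hspa8, Hsph1, Hspa5 and Cyp7a1, and overlap for Creld2, Nr0b2, Igfbp1 and Egr1.

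Liver genes known to follow the clock fell more often than they rose. Such genes had 2 higher and 12 lower of 25 (8% and 48%, 4 and 13 without 4238, 2 to 4 and 10 to 13 leave-one-out), with a median log2 fold change of -0.34, against 0.00 over all genes. Cyp7a1 (chr4:6265612-6275632), the rate-limiting enzyme of bile acid synthesis, was at 35.9 to 132 units (median 85.2) at Con 6 h, against 163 to 342 units (median 265) at Con 3 h (log2 fold change -1.75 ± 0.29 (SE), limma adjusted p = 2.02e-04). No Con 6 h mouse reached the lowest Con 3 h mouse. Por (chr5:135670040-135735326), the electron donor of all microsomal P450 enzymes, was at 73.6 to 151 units (median 90.9) at Con 6 h, against 145 to 285 units (median 268) at Con 3 h (log2 fold change -1.27 ± 0.16 (SE), limma adjusted p = 1.48e-05), and only mouse 4238 at Con 6 h reached into the Con 3 h range. Alas1, the first enzyme of heme synthesis, varied widely among mice, at 31.8 to 249.8 units (median 80.3) at Con 6 h, against 105 to 549 units (median 194) at Con 3 h (log2 fold change -1.57 ± 0.47 (SE), limma adjusted p = 0.023), and the call was lost when mouse 4205, 4222, 4233 or 4234 was left out singly (highest limma adjusted p = 0.064). Wee1, a kinase that holds cells from mitosis, fell with no overlap, at 5.13 to 10.1 units (median 7.12) at Con 6 h, against 11.6 to 15.8 units (median 12.98) at Con 3 h (log2 fold change -0.82 ± 0.11 (SE), limma adjusted p = 2.21e-05). Mtss1 (-0.74) and Gys2 (-0.66), the liver's glycogen synthase, fell likewise without overlap, and Usp2 (-0.85), a deubiquitinase, with overlap. Elovl5, an elongase of polyunsaturated fatty acids, was one of the 2 that rose, at 294 to 603 units (median 395) at Con 6 h, against 136 to 318 units (median 218) at Con 3 h (log2 fold change 0.89 ± 0.20 (SE), limma adjusted p = 0.0032). Elovl3, which belongs to the same list, was not called with mouse 4238 (limma adjusted p = 0.082) and was at a log2 fold change of 1.85 (limma adjusted p = 2.78e-05) without it.

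Bile acid genes changed in both directions, with a list count, Cyp7a1 included, of 4 higher and 2 lower of 25 (16% and 8%, 6 and 2 without 4238, 4 to 6 and 1 to 2 leave-one-out). Nr0b2 (chr4:133553376-133556686), the small heterodimer partner that bile acids induce through FXR and that represses Cyp7a1, was higher, at 26.6 to 76.7 units (median 48.5) at Con 6 h, against 8.03 to 27.6 units (median 16.3) at Con 3 h (log2 fold change 1.48 ± 0.27 (SE), limma adjusted p = 6.01e-04), with only mouse 4238 inside the Con 3 h range. Abcb11, the canalicular bile salt pump, was at 185 to 286 units (median 237) at Con 6 h, against 115 to 146 units (median 124) at Con 3 h (log2 fold change 0.90 ± 0.11 (SE), limma adjusted p = 1.03e-05). Hsd3b7, an early enzyme of both bile acid pathways, was at 319.6 to 563 units (median 481) at Con 6 h, against 229.8 to 291 units (median 249) at Con 3 h (log2 fold change 0.83 ± 0.12 (SE), limma adjusted p = 4.79e-05). Neither overlapped between times. Abcg8, part of the biliary cholesterol pump, rose by 0.88 on the log2 scale. Nr1h4, which encodes FXR, was slightly lower (log2 fold change -0.31 ± 0.09 (SE), limma adjusted p = 0.024), and the call was lost when mouse 4220 or 4231 was left out singly (highest limma adjusted p = 0.053).

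The heat shock and cytosolic chaperone list held the highest share of lower genes of any list with 10 or more measured members. Of 33 members, 0 were higher and 21 lower at Con 6 h (63.6%, against 9.55% of all genes). Of the 33, 15 were lower with no overlap between the groups, against 3.04% of all genes. At an unadjusted limma p under 0.05, 0 were higher and 26 lower, against 1542 higher and 1443 lower of all 9049 genes. The median log2 fold change was -0.24, and -0.22 without mouse 4238 (0 higher and 19 lower). Hspa8 (chr9:40801276-40805202), the constitutive HSC70 that folds new proteins and uncoats clathrin vesicles, had the lowest log2 fold change of all 9049 genes, at 239 to 498 units (median 315) at Con 6 h, against 1032 to 1311 units (median 1161) at Con 3 h (log2 fold change -1.82 ± 0.16 (SE), limma adjusted p = 1.12e-07). The fall was 3.53-fold, with no overlap. Hsph1 (chr5:149616843-149636498), an exchange factor of HSP70, was at 24.7 to 42.2 units (median 35.3) at Con 6 h, against 74.9 to 111 units (median 106) at Con 3 h (log2 fold change -1.51 ± 0.14 (SE), limma adjusted p = 3.31e-07). Dnaja1 (chr4:40722468-40734965), a J-domain partner of HSC70, had the smallest p of all genes, at 70.9 to 103 units (median 85.1) at Con 6 h, against 172 to 205 units (median 182) at Con 3 h (log2 fold change -1.11 ± 0.08 (SE), limma adjusted p = 7.32e-09). Hsp90aa1, the inducible cytosolic HSP90, was at 150.3 to 185 units (median 171) at Con 6 h, against 264 to 299.9 units (median 291) at Con 3 h (log2 fold change -0.79 ± 0.08 (SE), limma adjusted p = 1.71e-06), Dnajb1 at 12.3 to 16.6 units (median 15.3) at Con 6 h, against 23.8 to 30.9 units (median 25.99) at Con 3 h (log2 fold change -0.79 ± 0.09 (SE), limma adjusted p = 5.97e-06) and Chordc1, an HSP90 cochaperone, at 42.1 to 67.97 units (median 51.5) at Con 6 h, against 89.3 to 99.4 units (median 93.4) at Con 3 h (log2 fold change -0.85 ± 0.11 (SE), limma adjusted p = 1.03e-05). Mouse 4238 was the highest Con 6 h mouse for Hspa8, Hsph1, Dnaja1 and Chordc1 and still below every Con 3 h mouse.

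The letters of the heat shock element, GAANNTTC, occurred in a window of 10 of the 26 chaperone genes with one, against 7.1% of the 7286 genes. Of those, 5 of 10 were lower at Con 6 h, and of the other 16, 12 were. The window of Chordc1 (chr9:18292017-18292316, plus strand; GRCm38.p6) is shown for its 2 matches, in capitals, which begin 4 bases before and 6 bases after its start.
Chordc1: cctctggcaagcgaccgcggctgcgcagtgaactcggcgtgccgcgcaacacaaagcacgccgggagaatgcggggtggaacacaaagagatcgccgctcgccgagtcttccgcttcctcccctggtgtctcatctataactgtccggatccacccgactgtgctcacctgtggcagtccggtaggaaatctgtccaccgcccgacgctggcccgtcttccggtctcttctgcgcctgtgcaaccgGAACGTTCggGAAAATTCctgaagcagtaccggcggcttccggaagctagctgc

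RNA-binding genes that respond to small changes of temperature moved in both directions. Cirbp, which cold induces, was at 10.1 to 14.5 units (median 12.3) at Con 6 h, against 5.79 to 10.9 units (median 7.95) at Con 3 h (log2 fold change 0.60 ± 0.10 (SE), limma adjusted p = 2.29e-04). Rbm3, also known as a cold-induced gene, went the other way, at 7.08 to 11.3 units (median 9.25) at Con 6 h, against 11.9 to 17.4 units (median 14.6) at Con 3 h (log2 fold change -0.65 ± 0.12 (SE), limma adjusted p = 4.64e-04). Srsf5, a splicing factor, was higher, at 101 to 184 units (median 150.4) at Con 6 h, against 84.96 to 118 units (median 98.01) at Con 3 h (log2 fold change 0.55 ± 0.13 (SE), limma adjusted p = 0.0044).

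Many chaperones of the endoplasmic reticulum (ER) were lower as well. Of 37 members measured, 0 were higher and 17 lower (45.9%; median log2 fold change -0.27), and 0 were higher and 14 lower without mouse 4238 (median -0.19). At an unadjusted limma p under 0.05, 0 were higher and 20 lower, against 1542 higher and 1443 lower of all 9049 genes. Mouse 4238 was the lowest of all Con livers for Hspa5, Manf, Creld2, Syvn1 and Herpud1 of those named below. Hspa5 (chr2:34772090-34776529), the HSP70 of the ER lumen known as BiP, was at 295 to 780.4 units (median 571) at Con 6 h, against 833 to 1546 units (median 1180.3) at Con 3 h (log2 fold change -1.11 ± 0.18 (SE), limma adjusted p = 1.91e-04), with mouse 4238 at 295 units, and at a log2 fold change of -0.94 (limma adjusted p = 1.41e-04) without this mouse. Manf, an ER-resident factor that the unfolded protein response induces, was at 55.1 to 139.7 units (median 104) at Con 6 h, against 177 to 281 units (median 203) at Con 3 h (log2 fold change -1.10 ± 0.19 (SE), limma adjusted p = 2.65e-04). Dnajb9, an ER J-domain cochaperone, was at 44.2 to 66.7 units (median 57.9) at Con 6 h, against 83.8 to 169.8 units (median 138) at Con 3 h (log2 fold change -1.13 ± 0.14 (SE), limma adjusted p = 1.20e-05). The groups were apart for these 3. Creld2 (chr15:88819646-88826681), an ER stress-induced disulfide isomerase-like protein, was at 38.6 to 213 units (median 139) at Con 6 h, against 198 to 408 units (median 301) at Con 3 h (log2 fold change -1.26 ± 0.33 (SE), limma adjusted p = 0.011), and at a log2 fold change of -0.93 (limma adjusted p = 0.016) without mouse 4238. Syvn1, the HRD1 ubiquitin ligase of ER-associated degradation, was at 27.6 to 74.96 units (median 54.3) at Con 6 h, against 69.00 to 185 units (median 132) at Con 3 h (log2 fold change -1.31 ± 0.26 (SE), limma adjusted p = 0.001). Herpud1, its partner in that process, fell by 1.76-fold. Ddit3 (CHOP), a factor induced by the unfolded protein response and by ATF4, was at 6.16 to 10.2 units (median 7.73) at Con 6 h, against 12.04 to 16.8 units (median 14.6) at Con 3 h (log2 fold change -0.81 ± 0.11 (SE), limma adjusted p = 1.83e-05), again with no overlap.

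The ER stress element (CCAAT and CCACG with 9 bases between them) is rare: it occurred in 39 of all 32851 windows of the table (0.119%) and in 15 of the 7286 genes tested that have a window. Of those 15, 10 are among the 31 genes of the ER list with a window (Calr, Canx, Creld2, Derl3, Dnajc3, Ero1lb, Hsp90b1, Hspa5, Pdia6 and Syvn1). Of these 10, 3 (Creld2, Hspa5 and Syvn1) and 11 of the other 21 were lower at Con 6 h. Windows of those 3 are shown with the element in capitals, which in Creld2 is on the opposite strand (Hspa5 chr2:34771840-34772139, plus strand; Creld2 chr15:88819396-88819695, plus strand; Syvn1 chr19:6046326-6046625, plus strand; GRCm38.p6).
Hspa5: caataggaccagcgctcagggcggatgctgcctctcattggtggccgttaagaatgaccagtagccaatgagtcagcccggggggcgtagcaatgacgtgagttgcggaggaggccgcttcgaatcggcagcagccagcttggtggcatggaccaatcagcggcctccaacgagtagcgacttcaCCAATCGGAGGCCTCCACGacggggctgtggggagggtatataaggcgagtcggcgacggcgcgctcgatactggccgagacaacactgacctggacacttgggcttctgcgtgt
Creld2: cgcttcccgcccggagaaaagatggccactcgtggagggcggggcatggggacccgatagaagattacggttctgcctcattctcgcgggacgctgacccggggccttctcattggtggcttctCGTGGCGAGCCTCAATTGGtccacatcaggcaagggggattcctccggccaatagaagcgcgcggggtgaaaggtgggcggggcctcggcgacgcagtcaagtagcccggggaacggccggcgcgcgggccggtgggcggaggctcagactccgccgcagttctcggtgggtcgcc
Syvn1: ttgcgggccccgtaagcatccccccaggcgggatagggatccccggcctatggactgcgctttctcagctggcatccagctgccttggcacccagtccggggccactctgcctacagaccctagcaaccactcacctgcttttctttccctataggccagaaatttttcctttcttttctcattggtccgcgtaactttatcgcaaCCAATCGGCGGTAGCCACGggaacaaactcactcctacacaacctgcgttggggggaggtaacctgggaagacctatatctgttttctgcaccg

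Machinery that moves proteins into and out of the ER was lower in part. This list had 0 higher and 12 lower of 55 (0% and 21.8%, 1 and 13 without 4238, 0 to 1 and 10 to 16 leave-one-out). The COPII coat gene Sec31a was at 48.3 to 63.7 units (median 52.4) at Con 6 h, against 60.1 to 81.03 units (median 74.8) at Con 3 h (log2 fold change -0.41 ± 0.08 (SE), limma adjusted p = 0.0014). Lman1, a cargo receptor for coagulation factors, was at 173 to 219.7 units (median 192) at Con 6 h, against 234 to 259 units (median 246) at Con 3 h (log2 fold change -0.32 ± 0.06 (SE), limma adjusted p = 7.08e-04). Srp68 (-0.36) and Srprb (-0.37), of the signal recognition particle and its receptor, and Sec23a (-0.25) and Sec24c (-0.30), of the COPII coat, fell too, with their log2 fold changes in brackets.

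Ribosome biogenesis, the nucleolar assembly line that growth signals drive, was lower in much of the list. Of 64 members measured, 0 were higher and 31 lower (48.4%), 0 were higher and 36 lower without mouse 4238, and the median log2 fold change was -0.25. The unadjusted limma p was under 0.05 for 1 higher and 40 lower members, against 1542 higher and 1443 lower of all 9049 genes. Nop2, an rRNA methyltransferase, was at 12.3 to 18.4 units (median 12.4) at Con 6 h, against 18.9 to 24.4 units (median 22.4) at Con 3 h (log2 fold change -0.62 ± 0.10 (SE), limma adjusted p = 1.41e-04). Polr1b, a subunit of RNA polymerase I, was at 5.11 to 6.43 units (median 6.16) at Con 6 h, against 7.89 to 10.2 units (median 9.30) at Con 3 h (log2 fold change -0.52 ± 0.07 (SE), limma adjusted p = 2.95e-05). Neither overlapped between times. Bysl (-0.48), Pwp2 (-0.51), Nop16 (-0.43) and Wdr12 (-0.40), which act in the maturation of the small or large subunit, also fell with no overlap, by the log2 fold changes given.

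The ribosome's own protein genes had few calls. Of 70 cytosolic ribosomal protein genes, 1 was higher and 2 lower, with a median log2 fold change of -0.04; both shares are below those of all genes. Several ribosomal protein genes have processed pseudogenes that can take their reads. Mitochondrial ribosomal protein genes had 1 higher and 5 lower of 72 (1.39% and 6.94%, 1 and 9 without 4238, 1 and 1 to 9 leave-one-out). Genes for respiratory complexes and ATP synthase had 0 higher and 2 lower of 74 (0% and 2.7%, 0 and 0 without 4238, 0 and 0 to 7 leave-one-out). Translation factors had 1 higher and 9 lower of 46 (2.17% and 19.6%, 3 and 8 without 4238, 0 to 3 and 6 to 10 leave-one-out); Eif3j1 was at 18.5 to 20.2 units (median 19.6) at Con 6 h, against 22.5 to 26.6 units (median 25.3) at Con 3 h (log2 fold change -0.33 ± 0.06 (SE), limma adjusted p = 2.05e-04). Splicing genes had 4 higher and 10 lower of 66 (6.06% and 15.2%, 5 and 10 without 4238, 3 to 5 and 6 to 11 leave-one-out), among them the paired regulators Tra2a (-0.52) and Tra2b (-0.33), both lower, and Hnrnpk (0.19), higher. Nuclear pore and transport genes had 2 higher and 7 lower of 43 (4.65% and 16.3%, 2 and 9 without 4238, 2 to 3 and 5 to 9 leave-one-out), with the exportin Xpo1 at -0.39 and the importin Ipo7 at -0.29 on the log2 scale. Chromatin genes had 1 higher and 2 lower of 50 (2% and 4%, 2 and 3 without 4238, 1 to 2 and 2 to 3 leave-one-out), of which Hdac3, the corepressor enzyme that NR1D proteins recruit, was higher (log2 fold change 0.17) with no overlap, a call that was lost without mice 4238, 4223 and 4214 together (limma adjusted p = 0.051).

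Genes of cholesterol synthesis rose in part. Of 29 members measured, 12 were higher and 1 lower at Con 6 h (41.4%, against 10.2% of all genes), with a median log2 fold change of 0.55. Mouse 4238 was the lowest Con 6 h liver for all genes of the list named here but Nus1, and without it 18 were higher and 1 lower (median 0.73). The count fell to 6 or 7 when mouse 4215, 4221, 4222, 4231, 4233 or 4234 was left out singly, and to 5 with the Con livers alone. Insig2 (chr1:121304353-121332662), which retains SCAP and SREBP in the ER when sterols are ample, was at 178 to 328 units (median 229) at Con 6 h, against 104 to 137 units (median 125) at Con 3 h (log2 fold change 0.91 ± 0.13 (SE), limma adjusted p = 5.41e-05). Sc5d, a late enzyme of the pathway, was at 286 to 519 units (median 454) at Con 6 h, against 159.6 to 345 units (median 246) at Con 3 h (log2 fold change 0.85 ± 0.15 (SE), limma adjusted p = 3.61e-04). Pmvk, which phosphorylates phosphomevalonate, was at 59.7 to 172 units (median 123) at Con 6 h, against 40.1 to 92.7 units (median 56.1) at Con 3 h (log2 fold change 0.99 ± 0.22 (SE), limma adjusted p = 0.0025). Dhcr7, which makes cholesterol from its last precursor, was at 49.6 to 108 units (median 99.3) at Con 6 h, against 34.8 to 76.9 units (median 54.2) at Con 3 h (log2 fold change 0.79 ± 0.20 (SE), limma adjusted p = 0.0069). Of these 4, only Insig2 had groups that did not overlap. Hmgcs1, early in the pathway, was looked at after its values were seen. It spread over a wide range within each group, at 168 to 643 units (median 441) at Con 6 h, against 75.3 to 323 units (median 208) at Con 3 h (log2 fold change 1.19 ± 0.39 (SE), limma adjusted p = 0.033), and the call was lost when mouse 4215, 4221, 4222, 4231, 4233 or 4234 was left out singly (highest limma adjusted p = 0.091). Nus1, which serves dolichol synthesis, was the 1 member that fell (-0.30).

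Fatty acid synthesis showed the same direction with fewer calls. This list had 4 higher and 0 lower of 24 (16.7% and 0%, 9 and 0 without 4238, 3 to 9 and 0 to 1 leave-one-out). Its median log2 fold change was 0.20, and 0.32 without mouse 4238. Acly, which makes cytosolic acetyl-CoA from citrate, was at 174 to 455 units (median 304) at Con 6 h, against 105 to 258 units (median 158) at Con 3 h (log2 fold change 0.89 ± 0.19 (SE), limma adjusted p = 0.0021). Gpam, the first acyltransferase of triglyceride synthesis, was at 109 to 224 units (median 194) at Con 6 h, against 72.3 to 178 units (median 98.98) at Con 3 h (log2 fold change 0.80 ± 0.20 (SE), limma adjusted p = 0.007). Acss2, which activates acetate, was not called with mouse 4238, where it was at 37.7 units, and rose without it, at a log2 fold change of 1.12 (limma adjusted p = 4.55e-05). Thrsp, a lipogenic gene that thyroid hormone and carbohydrate induce, went against the list without passing, at 236 to 2542 units (median 1534) at Con 6 h, against 1525 to 3547 units (median 2409) at Con 3 h (log2 fold change -1.04 ± 0.38 (SE), limma adjusted p = 0.057).

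Some genes that FOXO1 induces when insulin is low were higher. The insulin and FOXO1 list had 5 higher and 0 lower of 21 (23.8% and 0%, 5 and 0 without 4238, 3 to 5 and 0 to 1 leave-one-out), with 3 higher without mouse 4205 or 4234, and a median log2 fold change of 0.01. Igfbp1 (chr11:7197787-7202546), a secreted IGF-binding protein, was at 14.5 to 54.6 units (median 39.1) at Con 6 h, against 4.96 to 20.1 units (median 8.81) at Con 3 h (log2 fold change 1.90 ± 0.47 (SE), limma adjusted p = 0.0063), 3.73-fold higher. Only the lowest Con 6 h mouse was inside the Con 3 h range. Pdk4 (chr6:5483351-5496278), the kinase that shuts off pyruvate dehydrogenase in fasting, was at 11.02 to 24.3 units (median 15.96) at Con 6 h, against 2.01 to 11.8 units (median 6.80) at Con 3 h (log2 fold change 1.29 ± 0.28 (SE), limma adjusted p = 0.0023). Pck1 (chr2:173153073-173159274), the rate-limiting enzyme of gluconeogenesis, spread over a wide range, at 135 to 1314 units (median 619.9) at Con 6 h, against 69.00 to 335 units (median 214) at Con 3 h (log2 fold change 1.50 ± 0.51 (SE), limma adjusted p = 0.043), and the call was lost when mouse 4205, 4215, 4217, 4220, 4222, 4234, 4238 or 4241 was left out singly (highest limma adjusted p = 0.11). G6pc, the last step of glucose release, did not pass, at 249.8 to 386 units (median 308) at Con 6 h, against 178 to 305 units (median 249) at Con 3 h (log2 fold change 0.41 ± 0.17 (SE), limma adjusted p = 0.099). Its partner Slc37a4, the transporter that feeds glucose-6-phosphate to it, fell, at 86.3 to 196 units (median 119.8) at Con 6 h, against 178 to 228 units (median 201) at Con 3 h (log2 fold change -0.71 ± 0.13 (SE), limma adjusted p = 6.02e-04). The gluconeogenesis list as a whole had 1 higher and 3 lower of 16 (6.25% and 18.8%, 0 and 2 without 4238, 0 to 1 and 1 to 4 leave-one-out).

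Glycogen metabolism genes had 2 higher and 1 lower of 14 (14.3% and 7.14%, 2 and 1 without 4238, 2 to 3 and 1 to 2 leave-one-out). Ppp1r3c (chr19:36731731-36736604), the targeting subunit that brings a phosphatase to glycogen, was higher, at 146 to 310.3 units (median 249) at Con 6 h, against 50.2 to 155 units (median 117) at Con 3 h (log2 fold change 1.12 ± 0.24 (SE), limma adjusted p = 0.002). Gys2, the enzyme it helps to activate, was lower, at 95.1 to 127 units (median 112) at Con 6 h, against 165 to 199.6 units (median 172) at Con 3 h (log2 fold change -0.66 ± 0.08 (SE), limma adjusted p = 1.19e-05), with no overlap. Phka2, a subunit of phosphorylase kinase, was higher (log2 fold change 0.30), though the call was lost with the Con livers alone (limma adjusted p = 0.055). Glycolysis genes had 0 higher and 3 lower of 20 (0% and 15%, 1 and 1 without 4238, 0 to 1 and 1 to 3 leave-one-out). Pfkfb1, the liver's bifunctional enzyme of fructose-2,6-bisphosphate, was at 27.6 to 66.3 units (median 38.4) at Con 6 h, against 44.4 to 70.3 units (median 59.8) at Con 3 h (log2 fold change -0.57 ± 0.14 (SE), limma adjusted p = 0.0069), and the call was lost with the Con livers alone (limma adjusted p = 0.052).

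Genes of lipid droplets and triglyceride turnover had 4 higher and 4 lower of 25 (16% and 16%, 6 and 5 without 4238, 3 to 6 and 4 to 5 leave-one-out). Fitm2 (chr2:163468703-163472629), which forms droplets at the ER, was at 19.5 to 26.6 units (median 22.7) at Con 6 h, against 35.5 to 46.8 units (median 38.9) at Con 3 h (log2 fold change -0.79 ± 0.07 (SE), limma adjusted p = 2.61e-07). Plin5, a coat protein that tethers droplets to mitochondria, was at 35.96 to 61.5 units (median 49.1) at Con 6 h, against 64.4 to 89.8 units (median 78.9) at Con 3 h (log2 fold change -0.65 ± 0.11 (SE), limma adjusted p = 3.56e-04). Mgll, monoglyceride lipase, was lower (log2 fold change -0.36). Those 3 were apart between times. Lipa, the lysosomal acid lipase, was higher, at 256 to 340.1 units (median 287) at Con 6 h, against 165 to 218 units (median 206) at Con 3 h (log2 fold change 0.55 ± 0.07 (SE), limma adjusted p = 1.77e-05), and so was Plin2_2, a listed copy of the main droplet coat gene Plin2 (log2 fold change 0.54). Fatty acid oxidation genes had 3 higher and 4 lower of 41 (7.32% and 9.76%, 3 and 4 without 4238, 2 to 5 and 3 to 6 leave-one-out), shares below those of all genes or close to them. Eci2, an isomerase of unsaturated fatty acids, was at 115 to 149 units (median 124) at Con 6 h, against 162 to 217 units (median 188) at Con 3 h (log2 fold change -0.56 ± 0.08 (SE), limma adjusted p = 5.35e-05), and the peroxisomal genes Acaa1a (-0.50) and Decr2 (-0.30) fell by less than 1 log2 unit. Apolipoprotein and lipoprotein genes had 3 higher and 1 lower of 26 (11.5% and 3.85%, 6 and 1 without 4238, 1 to 6 and 1 leave-one-out).

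Glutathione and conjugation genes were higher in part. NRF2 targets and glutathione genes had 12 higher and 0 lower of 31 (38.7% and 0%, 12 and 1 without 4238, 9 to 13 and 0 to 1 leave-one-out). The median log2 fold change was 0.26, and 29 of 31 had a positive log2 fold change. Gclc (chr9:77754535-77794489), the catalytic subunit of the rate-limiting enzyme of glutathione synthesis, was at 187 to 289 units (median 257) at Con 6 h, against 99.4 to 164 units (median 137) at Con 3 h (log2 fold change 0.89 ± 0.12 (SE), limma adjusted p = 1.83e-05). Its modifier subunit Gclm was at 149 to 179.8 units (median 158) at Con 6 h, against 112 to 138 units (median 126) at Con 3 h (log2 fold change 0.35 ± 0.05 (SE), limma adjusted p = 8.68e-05). Gsr, which returns oxidised glutathione to its reduced form, was at 50.5 to 61.4 units (median 59.6) at Con 6 h, against 44.7 to 49.8 units (median 46.3) at Con 3 h (log2 fold change 0.28 ± 0.06 (SE), limma adjusted p = 0.0025). None of these 3 overlapped between times. Among the glutathione transferases, whose close paralogs may share reads, Gstm4 was at 20.7 to 30.8 units (median 28.99) at Con 6 h, against 10.04 to 19.7 units (median 16.2) at Con 3 h (log2 fold change 0.79 ± 0.12 (SE), limma adjusted p = 4.73e-05) and Gstm7 at 86.3 to 102 units (median 94.2) at Con 6 h, against 53.7 to 70.2 units (median 67.6) at Con 3 h (log2 fold change 0.52 ± 0.08 (SE), limma adjusted p = 5.29e-05). Gstm1 (0.52), Gstm3 (0.98) and Gsta3 (0.27) were higher too. Mouse 4238 was the highest of all for Gstm1 and Gstm3.

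Other drug-metabolising genes varied. The phase II list had 7 higher and 4 lower of 36 (19.4% and 11.1%, 6 and 2 without 4238, 5 to 9 and 1 to 5 leave-one-out); Sult1d1, a sulfotransferase, was lower (log2 fold change -0.58), and Ugt2b38, a glucuronosyltransferase, was lower (log2 fold change -1.14 ± 0.37 (SE), limma adjusted p = 0.035), though the call was lost when mouse 4205, 4218, 4233, 4234, 4238 or 4241 was left out singly (highest limma adjusted p = 0.088). P450 genes of families 1 to 4 had 4 higher and 1 lower of 45 (8.89% and 2.22%, 7 and 1 without 4238, 1 to 7 and 1 to 2 leave-one-out). Cyp2a5, a xenobiotic P450 controlled by the clock's PAR bZIP factors, was at 208 to 386 units (median 263) at Con 6 h, against 351 to 696 units (median 465) at Con 3 h (log2 fold change -0.78 ± 0.14 (SE), limma adjusted p = 5.05e-04). Cyp3a11, the main PXR target, was at 1362 to 3259 units (median 1538) at Con 6 h, against 574 to 1365 units (median 1160.4) at Con 3 h (log2 fold change 0.70 ± 0.19 (SE), limma adjusted p = 0.011), with mouse 4238 highest at 3259 units, and the call was lost with the Con livers alone (limma adjusted p = 0.068). Nr1i2, which encodes PXR, was higher (log2 fold change 0.33). Cyp26a1 (chr19:37697738-37701536), which breaks down retinoic acid, was among the largest rises, at 11.02 to 37.99 units (median 16.3) at Con 6 h, against 2.93 to 8.69 units (median 4.99) at Con 3 h (log2 fold change 1.72 ± 0.30 (SE), limma adjusted p = 3.44e-04), with no overlap. Nuclear receptors had 5 higher and 3 lower of 28 (17.9% and 10.7%, 7 and 3 without 4238, 5 to 7 and 2 to 3 leave-one-out). Esrra, an activator of mitochondrial genes, was at 12.3 to 23.9 units (median 20.5) at Con 6 h, against 27.3 to 43.7 units (median 37.4) at Con 3 h (log2 fold change -0.83 ± 0.14 (SE), limma adjusted p = 1.73e-04). Thra, a thyroid hormone receptor, was at 6.14 to 8.09 units (median 6.81) at Con 6 h, against 4.01 to 5.91 units (median 4.85) at Con 3 h (log2 fold change 0.45 ± 0.09 (SE), limma adjusted p = 0.0015), both with no overlap. For Thra, the nearest mice of the groups had equal deposited values, and only the scaling set them apart.

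Amino acid breakdown genes had 6 higher and 4 lower of 51 (11.8% and 7.84%, 9 and 5 without 4238, 5 to 9 and 3 to 6 leave-one-out), close to the shares over all genes. Amdhd1 (chr10:93523338-93540111) and Hal, of histidine breakdown, were higher: Amdhd1 was at 133 to 159.6 units (median 149) at Con 6 h, against 80.3 to 106 units (median 93.5) at Con 3 h (log2 fold change 0.66 ± 0.08 (SE), limma adjusted p = 1.20e-05). Hal was at 211 to 406 units (median 303) at Con 6 h, against 168 to 242 units (median 199) at Con 3 h (log2 fold change 0.59 ± 0.15 (SE), limma adjusted p = 0.0062). Agxt, which removes glyoxylate, was at 218 to 278 units (median 259) at Con 6 h, against 157 to 201 units (median 175) at Con 3 h (log2 fold change 0.50 ± 0.08 (SE), limma adjusted p = 2.01e-04). Amt, of the glycine cleavage system, was at 43.2 to 69.9 units (median 57.97) at Con 6 h, against 28.1 to 40.03 units (median 37.1) at Con 3 h (log2 fold change 0.66 ± 0.11 (SE), limma adjusted p = 1.97e-04). Tdo2, the first enzyme of tryptophan breakdown, was lower, at 1949.9 to 2314 units (median 2064) at Con 6 h, against 2409 to 2774 units (median 2604) at Con 3 h (log2 fold change -0.31 ± 0.06 (SE), limma adjusted p = 4.91e-04). Of these, Amdhd1, Agxt, Amt and Tdo2 did not overlap between times. The methionine cycle and trans-sulfuration list had 3 higher and 1 lower of 21 (14.3% and 4.76%, 3 and 2 without 4238, 3 to 4 and 1 to 2 leave-one-out). Cbs (chr17:31612623-31637233), which takes homocysteine towards cysteine, was at 245 to 303 units (median 263) at Con 6 h, against 139.99 to 193 units (median 165) at Con 3 h (log2 fold change 0.69 ± 0.12 (SE), limma adjusted p = 3.00e-04), with no overlap. The urea cycle list had 1 higher and 1 lower of 14 (7.14% and 7.14%, 1 and 3 without 4238, 0 to 1 and 1 to 3 leave-one-out), and Asl was at 427 to 572 units (median 440.4) at Con 6 h, against 576 to 627 units (median 593) at Con 3 h (log2 fold change -0.38 ± 0.07 (SE), limma adjusted p = 4.02e-04).

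Targets of ATF4, the factor that amino acid shortage and ER stress induce, were higher in part on the Con diet. They had 7 higher and 2 lower of 29 (24.1% and 6.9%, 7 and 2 without 4238, 5 to 10 and 2 leave-one-out), with a median log2 fold change of 0.25. At MR 6 h against MR 3 h the same list had 24 higher and 1 lower, with a median of 0.72. Mthfd2, a mitochondrial folate enzyme, was at 2.07 to 9.24 units (median 7.69) at Con 6 h, against 0.965 to 4.07 units (median 1.98) at Con 3 h (log2 fold change 1.33 ± 0.29 (SE), limma adjusted p = 0.0027). Psat1, of serine synthesis, was at 1.04 to 10.1 units (median 5.64) at Con 6 h, against 0.965 to 2.03 units (median 0.998) at Con 3 h (log2 fold change 1.33 ± 0.31 (SE), limma adjusted p = 0.0044), both from very low levels. Atf5 (chr7:44812256-44816658), a bZIP factor, was at 221 to 449 units (median 356) at Con 6 h, against 119 to 215 units (median 184) at Con 3 h (log2 fold change 0.95 ± 0.19 (SE), limma adjusted p = 9.59e-04), and the cysteine tRNA synthetase Cars at 15.5 to 26.6 units (median 25.2) at Con 6 h, against 10.6 to 15.6 units (median 11.4) at Con 3 h (log2 fold change 0.79 ± 0.14 (SE), limma adjusted p = 2.79e-04). Slc1a4, a carrier of neutral amino acids, was at 3.11 to 11.02 units (median 5.64) at Con 6 h, against 1.004 to 3.05 units (median 2.45) at Con 3 h (log2 fold change 1.07 ± 0.24 (SE), limma adjusted p = 0.0026). Trib3, a pseudokinase that ATF4 induces, was at 3.04 to 4.59 units (median 4.10) at Con 6 h, against 2.01 to 2.98 units (median 2.91) at Con 3 h (log2 fold change 0.41 ± 0.11 (SE), limma adjusted p = 0.0099). Asns, asparagine synthetase, did not pass (log2 fold change 0.76 ± 0.36 (SE), limma adjusted p = 0.15). Ddit3, which ATF4 also induces, went the other way and was lower with no overlap, as given above. Aminoacyl-tRNA synthetases and partners had 4 higher and 3 lower of 22 (18.2% and 13.6%, 5 and 4 without 4238, 2 to 6 and 3 to 4 leave-one-out). Amino acid transporters had 4 higher and 0 lower of 23 (17.4% and 0%, 5 and 3 without 4238, 3 to 5 and 0 to 3 leave-one-out). Tars, the threonine enzyme, was at a log2 fold change of 0.45 with mouse 4238 and at a log2 fold change of 0.61 (limma adjusted p = 7.82e-06) without it, and the call was lost with the Con livers alone (limma adjusted p = 0.061).

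Early response and growth-arrest genes were higher in a minority of their lists. Immediate early genes had 6 higher and 0 lower of 21 (28.6% and 0%, 6 and 0 without 4238, 5 to 6 and 0 leave-one-out). Egr1, a zinc-finger factor that stimulation induces within minutes and that handling can raise, had the largest log2 fold change of all called genes and the widest spread, at 2.07 to 46.8 units (median 18.5) at Con 6 h, against 0.986 to 7.12 units (median 1.94) at Con 3 h (log2 fold change 2.38 ± 0.53 (SE), limma adjusted p = 0.0032). Mouse 4238 was the highest, and 2 Con 6 h mice lay inside the Con 3 h range. Btg1, an antiproliferative gene, was steadier, at 26.6 to 42.1 units (median 30.2) at Con 6 h, against 12.2 to 23.4 units (median 16.6) at Con 3 h (log2 fold change 0.94 ± 0.14 (SE), limma adjusted p = 5.31e-05). Cdkn1a_1, the listed copy of the gene of the cell cycle inhibitor p21, was at 5.06 to 17.5 units (median 10.8) at Con 6 h, against 1.95 to 5.02 units (median 2.46) at Con 3 h (log2 fold change 1.60 ± 0.34 (SE), limma adjusted p = 0.0021). Trp53inp1, a p53 and FOXO target, was at 28.6 to 61.6 units (median 34.6) at Con 6 h, against 13.5 to 25.4 units (median 19.5) at Con 3 h (log2 fold change 0.97 ± 0.19 (SE), limma adjusted p = 7.93e-04), with no overlap. For Cdkn1a_1, the lowest Con 6 h and highest Con 3 h mice had equal deposited values, and only the scaling set them apart. The p53 list had 3 higher and 0 lower of 15 (20% and 0%, 4 and 0 without 4238, 3 to 4 and 0 leave-one-out). The cell cycle list had 6 higher and 1 lower of 25 (24% and 4%, 4 and 3 without 4238, 4 to 7 and 1 to 3 leave-one-out). Rfc5, of the clamp loader, was at 7.26 to 14.7 units (median 9.66) at Con 6 h, against 4.96 to 7.12 units (median 5.82) at Con 3 h (log2 fold change 0.69 ± 0.12 (SE), limma adjusted p = 3.70e-04), with mouse 4238 the highest. Glucocorticoid-responsive genes had 4 higher and 2 lower of 17 (23.5% and 11.8%, 3 and 2 without 4238, 3 to 4 and 1 to 2 leave-one-out). Klf9 was higher (log2 fold change 0.50), though the call was lost with the Con livers alone (limma adjusted p = 0.054). Mt1, a metallothionein, was lower (log2 fold change -1.15 ± 0.40 (SE), limma adjusted p = 0.049), though the call was lost when mouse 4215, 4217, 4220, 4221, 4222, 4231, 4233 or 4234 was left out singly (highest limma adjusted p = 0.12).

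Interferon-stimulated genes were higher in part. The list had 9 higher and 0 lower of 29 (31% and 0%, 10 and 0 without 4238, 9 to 13 and 0 leave-one-out). Its median log2 fold change was 0.33, and 0.25 without mouse 4238. Ifit3 (chr19:34583119-34588982), an RNA-binding effector, was at 14.5 to 26.7 units (median 19.3) at Con 6 h, against 5.79 to 13.9 units (median 12.4) at Con 3 h (log2 fold change 0.78 ± 0.18 (SE), limma adjusted p = 0.0041), with no overlap. Its nearest mice of the 2 groups had equal deposited values, and only the scaling set them apart. Usp18, which removes ISG15 from proteins, was at 14.5 to 27.7 units (median 21.8) at Con 6 h, against 6.76 to 14.8 units (median 12.97) at Con 3 h (log2 fold change 0.78 ± 0.17 (SE), limma adjusted p = 0.0023). Isg15 was at 6.22 to 16.5 units (median 14.4) at Con 6 h, against 4.83 to 9.93 units (median 7.36) at Con 3 h (log2 fold change 0.75 ± 0.19 (SE), limma adjusted p = 0.0063). Iigp1, an interferon-inducible GTPase, was at 212 to 390.4 units (median 278) at Con 6 h, against 155 to 233 units (median 174) at Con 3 h (log2 fold change 0.65 ± 0.12 (SE), limma adjusted p = 5.98e-04). The letters of the interferon-stimulated response element (GAAA, any 2 bases and GAAA) occurred in a window of 13 of the 22 members with one, against 3.64% of the 7286 genes; 3 of those 13 and 2 of the other 9 were higher at Con 6 h. The window of Isg15 (chr4:156200769-156201068, minus strand; GRCm38.p6) is shown for its 3 overlapping matches, in capitals.
Isg15: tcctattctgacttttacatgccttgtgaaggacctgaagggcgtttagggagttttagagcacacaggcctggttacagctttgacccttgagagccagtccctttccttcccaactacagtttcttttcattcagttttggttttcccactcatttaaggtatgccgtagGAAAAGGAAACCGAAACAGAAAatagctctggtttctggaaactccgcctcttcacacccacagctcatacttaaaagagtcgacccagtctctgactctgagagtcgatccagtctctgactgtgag

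Acute phase and iron genes included large falls. Saa4 (chr7:46727992-46732603), a constitutive serum amyloid A, was at 249 to 451 units (median 311) at Con 6 h, against 423 to 1059 units (median 748) at Con 3 h (log2 fold change -1.15 ± 0.17 (SE), limma adjusted p = 6.40e-05). Hamp (chr7:30942368-30944029), the iron hormone hepcidin, was at 1318 to 2510.2 units (median 1577) at Con 6 h, against 1974 to 3954 units (median 3148) at Con 3 h (log2 fold change -0.81 ± 0.22 (SE), limma adjusted p = 0.01). The fibrinogen chain Fga was higher (log2 fold change 0.42), though the call was lost with the Con livers alone (limma adjusted p = 0.071). The acute phase list had 5 higher and 2 lower of 32 (15.6% and 6.25%, 5 and 2 without 4238, 2 to 6 and 2 to 3 leave-one-out). Trf, transferrin, one of the most abundant transcripts, was at 13040.00 to 15653 units (median 13800.1) at Con 6 h, against 10551 to 12492 units (median 11743) at Con 3 h (log2 fold change 0.27 ± 0.07 (SE), limma adjusted p = 0.0064), with no overlap. The list of iron and heme genes had 3 higher and 3 lower of 27 (11.1% and 11.1%, 5 and 4 without 4238, 2 to 5 and 1 to 4 leave-one-out). Hormones secreted by the liver had 1 higher and 3 lower of 27 (3.7% and 11.1%, 1 and 3 without 4238, 1 and 2 to 3 leave-one-out). The growth hormone and IGF axis had 2 higher and 0 lower of 21 (9.52% and 0%, 4 and 0 without 4238, 2 to 4 and 0 to 1 leave-one-out), and Igf1 itself was at 190.3 to 240.3 units (median 229) at Con 6 h, against 185 to 239.98 units (median 212) at Con 3 h (log2 fold change 0.05 ± 0.07 (SE), limma adjusted p = 0.66). Stat5b, which carries the growth hormone signal, was higher, at 11.9 to 22.6 units (median 20.6) at Con 6 h, against 11.2 to 15.6 units (median 12.9) at Con 3 h (log2 fold change 0.51 ± 0.12 (SE), limma adjusted p = 0.0035), and at a log2 fold change of 0.63 (limma adjusted p = 2.44e-05) without mouse 4238. None of 19 listed Mup genes was called by limma. Before adjustment, 0 were higher and 2 lower at a limma p under 0.05, against 1542 higher and 1443 lower of all 9049 genes. The median log2 fold change of the listed Mup genes was -0.62 with mouse 4238 and -0.02 without it.

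Protein turnover lists had calls in both directions. The proteasome list had 5 higher and 2 lower of 42 (11.9% and 4.76%, 6 and 2 without 4238, 2 to 6 and 1 to 3 leave-one-out), with Psma1 at 159.6 to 186 units (median 166) at Con 6 h, against 129 to 155 units (median 139) at Con 3 h (log2 fold change 0.26 ± 0.05 (SE), limma adjusted p = 9.68e-04). Autophagy and lysosome genes had 5 higher and 5 lower of 46 (10.9% and 10.9%, 6 and 4 without 4238, 3 to 7 and 4 to 6 leave-one-out). Bnip3, a mitophagy receptor, was lower (log2 fold change -0.48), Map1lc3b, an LC3 gene, was lower (-0.27), and Atg7, which conjugates LC3, was higher (log2 fold change 0.36). Ubiquitin-specific proteases had 2 higher and 7 lower of 35 (5.71% and 20%, 4 and 6 without 4238, 1 to 4 and 5 to 8 leave-one-out).

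Several of the largest changes belonged to no list. Rnf125 (chr18:20944615-20987359), a ubiquitin ligase of innate immune signalling, was at 68.9 to 299 units (median 204) at Con 6 h, against 45.2 to 73.2 units (median 52.5) at Con 3 h (log2 fold change 1.67 ± 0.24 (SE), limma adjusted p = 4.58e-05), and only mouse 4238 at Con 6 h lay inside the Con 3 h range. Ndrg1 (chr15:66929318-66969641), a stress- and hypoxia-responsive gene, was at 11.4 to 23.6 units (median 16.8) at Con 6 h, against 3.97 to 6.10 units (median 5.39) at Con 3 h (log2 fold change 1.51 ± 0.16 (SE), limma adjusted p = 2.04e-06). Camk1d, a calcium-dependent kinase, was at 11.02 to 27.7 units (median 21.5) at Con 6 h, against 4.96 to 9.76 units (median 7.93) at Con 3 h (log2 fold change 1.28 ± 0.18 (SE), limma adjusted p = 2.48e-05), Fabp7, a fatty acid-binding protein best known in brain, at 4.15 to 12.9 units (median 8.71) at Con 6 h, against 0.976 to 3.01 units (median 2.50) at Con 3 h (log2 fold change 1.52 ± 0.20 (SE), limma adjusted p = 1.44e-05). Spon2, a secreted matrix protein, was at 4.15 to 12.1 units (median 9.22) at Con 6 h, against 1.93 to 3.94 units (median 2.53) at Con 3 h (log2 fold change 1.34 ± 0.20 (SE), limma adjusted p = 4.79e-05). Those 4 did not overlap between times. For Spon2, the nearest mice of the 2 groups had equal deposited values, and only the scaling set them apart. Aqp8, a water channel of the bile canaliculus, was at 87.3 to 532 units (median 382) at Con 6 h, against 61.2 to 297 units (median 107) at Con 3 h (log2 fold change 1.28 ± 0.36 (SE), limma adjusted p = 0.015), and the call was lost with the Con livers alone (limma adjusted p = 0.082). The unnamed transcripts 1810008I18Rik (log2 fold change 1.67 ± 0.32 (SE), limma adjusted p = 9.30e-04) and 8430408G22Rik (log2 fold change 1.24 ± 0.31 (SE), limma adjusted p = 0.0068) were higher. On the lower side, Rcan1 (chr16:92391951-92466169), a calcineurin inhibitor, was at 19.5 to 33.98 units (median 24.1) at Con 6 h, against 47.8 to 88.5 units (median 58.4) at Con 3 h (log2 fold change -1.24 ± 0.16 (SE), limma adjusted p = 1.48e-05), with no overlap. Nrep was at 27.99 to 103 units (median 48.3) at Con 6 h, against 102 to 227 units (median 146) at Con 3 h (log2 fold change -1.45 ± 0.29 (SE), limma adjusted p = 0.0013), and the pseudogene Serpina4-ps1 at 55.1 to 506 units (median 329) at Con 6 h, against 343 to 1324 units (median 758) at Con 3 h (log2 fold change -1.47 ± 0.43 (SE), limma adjusted p = 0.019), though the call was lost with the Con livers alone (limma adjusted p = 0.081).

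**Figure D4:**
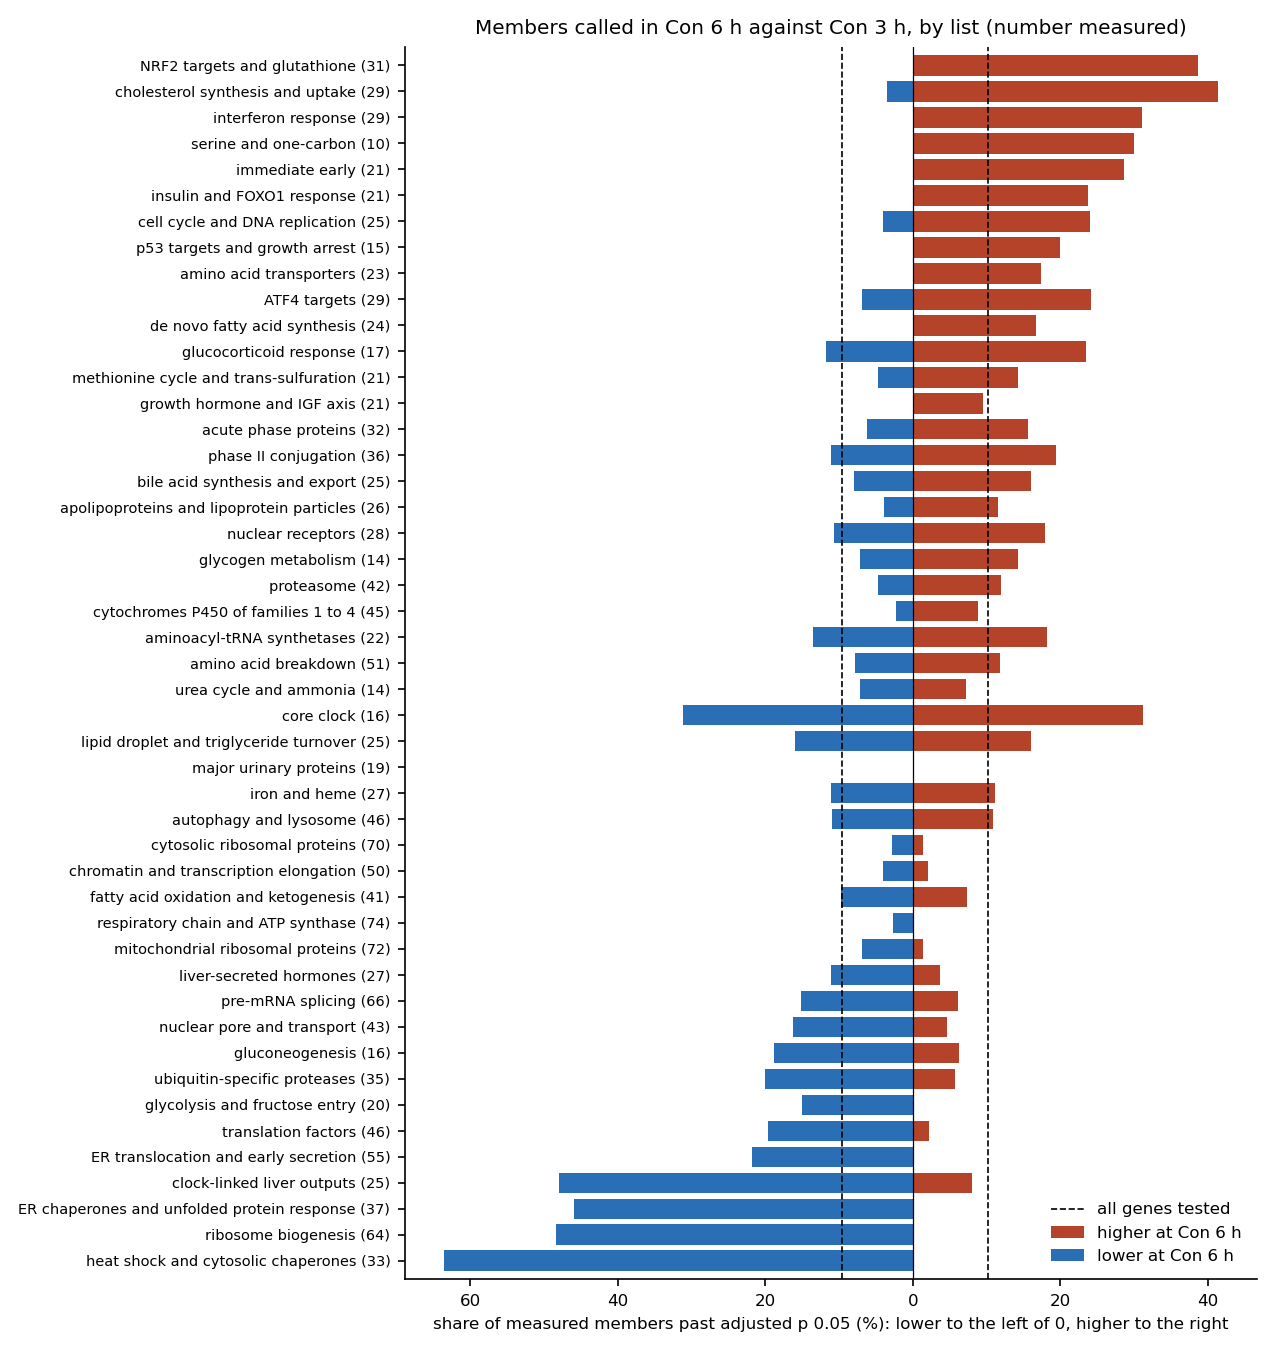
Share of the measured members of each list that were higher (right) or lower (left) in Con 6 h against Con 3 h past adjusted p 0.05, for lists with 10 or more measured members (number in brackets); dashed lines mark the shares over all 9049 genes, 10.2% and 9.55%. Chaperones, ribosome biogenesis, ER chaperones and clock outputs stand out to the left, cholesterol synthesis and NRF2 targets to the right, and the core clock on both sides.

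Summed markers of the cell types given here overlapped between the times, and some were high or low in mouse 4238. The summed level of 10 hepatocyte markers was 161625 to 186041 units at Con 6 h and 150692 to 164903 units at Con 3 h. Of the 10 markers, Fga and Trf were called higher. The 10 periportal hepatocyte markers summed to 6431 to 9751 units at Con 6 h, with mouse 4238 at 9273, against 6778 to 7809 units at Con 3 h. Of these, Hal, Pck1 and Ctsc were called higher, and without mouse 4238 Hal was higher and Sds lower. The 12 Kupffer cell and macrophage markers summed to 509 to 699 units in 5 Con 6 h mice and to 1435 units in mouse 4238, against 485 to 742 units at Con 3 h; none was at 0 in a whole group. Lyz2 was the one called (log2 fold change 0.52 ± 0.18 (SE), limma adjusted p = 0.041), and the call was lost when mouse 4205, 4215, 4217, 4218, 4220 or 4231 was left out singly (highest limma adjusted p = 0.076). The 9 stellate cell and fibroblast markers summed to 419 to 522 units in the 5 and to 743 units in mouse 4238, against 407 to 487 units at Con 3 h. Pdgfrb was called higher, and no member without mouse 4238. The 12 endothelial markers summed to 295 to 334 units in the 5 and to 380 units in mouse 4238, against 288 to 364 units at Con 3 h. Kdr and Cdh5 were called higher, and Kdr alone without mouse 4238. Pericentral hepatocyte markers summed to 5082 to 10268 units at Con 6 h, the lowest in mouse 4238, against 8162 to 12682 units at Con 3 h, with no member called. The 9 measured pancreas markers summed to at most 47.8 units in any mouse and 4 adrenal markers to at most 4.96; 6 of the 9 pancreas markers were at 0 in every Con 3 h mouse. The part of these cell types in the changes above was not tested.

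The same hours in other mice, those on the MR diet, gave 1337 genes higher and 1206 lower at MR 6 h against MR 3 h (14.8% and 13.3%). The MR and Con comparisons share no mouse. Of the 1786 genes called in Con, 1754 had the same sign in MR and 1305 were called there in the same direction, which is 73.1% of the Con calls and 51.3% of the MR calls. No gene was called in opposite directions. Across the 9049 genes, which are not independent, the log2 fold changes of the 2 comparisons had a Pearson correlation of 0.79. Core clock genes had 5 higher and 5 lower of 16 in MR, as in Con, with Nr1d2 at a log2 fold change of -1.33 (limma adjusted p = 1.65e-06) and Arntl at a log2 fold change of 0.86 (limma adjusted p = 2.85e-06). Heat shock genes had 0 higher and 17 lower of 33, and Hspa8 was at a log2 fold change of -2.03 (limma adjusted p = 3.82e-09). ER chaperones had 0 higher and 13 lower of 37, ribosome biogenesis 1 higher and 44 lower of 64 and cholesterol synthesis 22 higher and 1 lower of 29. Counts of some other lists differed more between the diets. ATF4 targets had 24 higher and 1 lower of 29 in MR, against 7 and 2 in Con. Proteasome genes had 14 higher and 2 lower of 42 in MR, against 5 and 2 in Con. Acute phase genes had 1 higher and 5 lower of 32 in MR, against 5 and 2 in Con. These differences of counts were not tested.

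**Figure D5:**
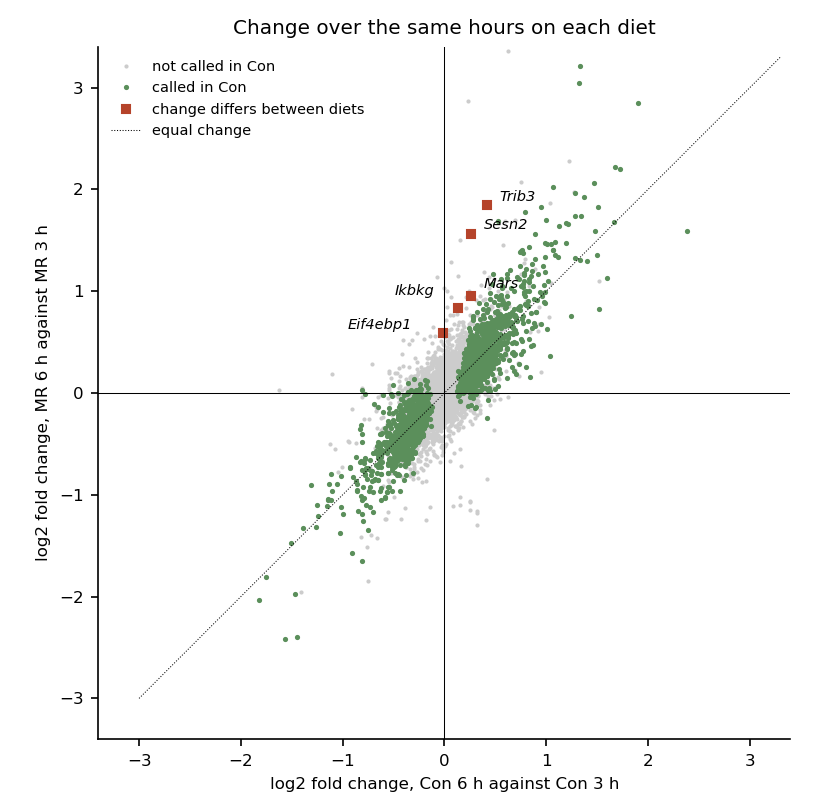
Log2 fold change of each of 9049 genes in Con 6 h against Con 3 h (horizontal) and MR 6 h against MR 3 h (vertical); green points were called in Con, and squares are the 5 genes whose change differed between the diets. Nearly all green points lie at the lower left and upper right (1754 of 1786 with the same sign), and the 5 squares lie above the dotted line of equal change.

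The change over these hours differed between the diets, tested as the difference of the 2 changes, for 5 genes (0.0553% of those tested; 617 at an unadjusted p under 0.05), and each of the 5 rose less or not at all on the Con diet. Trib3 showed the largest difference: its change in Con minus that in MR was -1.43 ± 0.16 (SE), limma adjusted p = 2.25e-05, with levels of 3.04 to 4.59 units (median 4.10) at Con 6 h, against 2.01 to 2.98 units (median 2.91) at Con 3 h and of 9.77 to 14.4 units (median 12.01) at MR 6 h, against 1.94 to 3.03 units (median 2.91) at MR 3 h. Sesn2, a stress-induced inhibitor of mTORC1, was at 2.05 to 4.11 units (median 3.05) at Con 6 h, against 1.93 to 2.96 units (median 2.02) at Con 3 h, and at 5.92 to 10.1 units (median 7.48) at MR 6 h, against 1.01 to 2.86 units (median 1.99) at MR 3 h (difference -1.31 ± 0.21 (SE), limma adjusted p = 0.011). Ikbkg, a subunit of the IκB kinase complex, had a change of 0.13 in Con and 0.84 in MR (difference -0.71 ± 0.12 (SE), limma adjusted p = 0.011). Mars, the methionine tRNA synthetase, had 0.26 and 0.95 (difference -0.70 ± 0.13 (SE), limma adjusted p = 0.036), and Eif4ebp1, the translation repressor 4E-BP1, -0.01 and 0.59 (difference -0.60 ± 0.11 (SE), limma adjusted p = 0.036). Over the other settings and left-out mice, Trib3 and Sesn2 kept their call in all 31 that tested them. Ikbkg kept it in 31 of 32 and lost it without mice 4238, 4223 and 4214 together (limma adjusted p = 0.11). Mars kept it in 14 of 32 and Eif4ebp1 in 11 of 32. Neither of the last 2 was called without mouse 4238.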

How the data were processed

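The deposited tables were made by the authors from QuantSeq 3′-end libraries read in 50 bp forward reads. The submitters' notes name GRCm38 and DESeq2 1.22.2, and no source used here gives the aligner. The table called raw counts holds whole-number scores that the authors had scaled to nearly 1 total per library and rounded, so no count model was used. A second deposited table holds the same scores divided by 1 size factor per library, and served as an alternative scaling. Scores were scaled by TMM factors (0.937 to 1.09, log ratios trimmed by 30% and means by 5%), and log2(score + 1) of 9049 genes was fitted with limma 3.58.1 (trend and robust prior, statmod 1.5.0) in R 4.3.3 with 4 group means over 24 libraries. The Benjamini-Hochberg adjustment ran over all genes, with a threshold of 0.05. Permutation tests were exact and two-sided over 924 divisions of the mice.

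The members and the 48 process and 17 marker lists were chosen with earlier results of these data known. Named genes were the 15 largest called changes in each direction with a mean of at least 5 units, up to 6 members of each process list with the smallest p, all core clock genes, up to 6 genes whose change differed between diets, the 10 in which mouse 4238 lay farthest from its group and up to 6 whose call differed most with and without it. Genes outside the rule are Cyp4a12a, Cyp2b9, Ddx3y, Hmgcs1, Thrsp, Lyz2, Igf1 and G6pc, which were chosen after their values were seen. In the table, 153 rows carry a suffix such as _1 after a symbol. RefSeq held 9005 of the genes. The fit was tested on simulated data. Alternatives were other scalings, pseudocounts, filters, priors, weights and sets of mice.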

Additional observations from a re-analysis of the deposited data

Results flagged for a closer look

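In the 330 groups of 6 Con mice examined for the 165 genes given with values, 28 had a mouse far from the other 5 by Dixon's criterion. With normally distributed values, chance reaches it in about 1 group in 20. Here it was applied to levels without a log, and groups of different genes share mice, so that rate is only a rough guide. Mouse 4238 accounted for 14 of the 28, all at Con 6 h. The genes examined include those chosen because mouse 4238 lay farthest from its group in them, those whose call changed without it and some chosen after their values were seen, so its tally is partly set by that choice. It was highest for Ccnd1 (88.2 units, against 4.15 to 8.21 in the others), Cyp2a4 (259.9, against 0 to 1.03), Cyp2b9 (42.2, against 1.01 to 10.3), Cyp3a11 (3259, against 1362 to 1746), Gstm1 (1240, against 836 to 964), Gstm3 (115, against 39.4 to 55.5), Lyz2 (282, against 99.7 to 136), Tra2a (30.3, against 18.4 to 21.2) and Xpo1 (19.3, against 13.3 to 15.4). It was lowest for Dhcr7 (49.6 units, against 93.3 to 108), Elovl3 (59.7, against 729.7 to 935), Nop16 (34.0, against 40.9 to 42.5), Stat5b (11.9, against 19.2 to 22.6) and Tars (99.2, against 185 to 199).

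The other 14 came from 7 mice. At Con 6 h, mouse 4241 stood apart for Asl (572 units), Mthfd2 (2.07) and Slc37a4 (196), mouse 4234 for Decr2 (212), Mgll (126) and Per2 (11.3), and mouse 4221 for Polr1b (5.11). At Con 3 h, mouse 4220 stood apart for 1810008I18Rik (106) and Hsph1 (74.9), mouse 4233 for Cdkn1a_1 (5.02) and Cyp3a11 (574), mouse 4205 for Egr1 (7.12) and Mthfd2 (4.07), and mouse 4215 for Hsp90aa1 (264).

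The change between 3 and 6 h differed between the diets by the limma test of the difference for Trib3 (Con minus MR, -1.43 on the log2 scale), Sesn2 (-1.31), Ikbkg (-0.71), Mars (-0.70) and Eif4ebp1 (-0.60).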

How the results depend on the processing

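Leaving out each mouse in turn gave 711 to 1114 genes higher and 716 to 974 lower in Con 6 h against Con 3 h, 1114 to 1284 and 1015 to 1170 in MR 6 h against MR 3 h, and 3 to 8 genes whose change differed between the diets. With the Con livers alone 564 genes were higher in Con 6 h. The number differing between the diets was 3 with only genes of a mean of at least 10 units, 3 with an ordinary prior, 3 with array weights and 2 without mice 4238, 4223 (MR 3 h) and 4214 (MR 6 h) together. It could not be computed with only the groups compared. The other scalings and pseudocounts moved no count over all genes by more than 1.5 times. Of 222 named genes called, 180 kept the call whichever mouse was left out, 161 of these also in every other setting. For 29 of the 222, the Con livers alone were the one other setting that lost the call.

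No named gene that was called changed direction under these settings. Sign changes were found in genes that were not called in the comparison: Cry2 (0.033 with array weights, 0.013 without mice 4238, 4223 and 4214, and -0.11 to 0.025 with single mice left out), Serpina12 (0.015, 0.11 and -0.73 to 0.12 in the same order), Cyp2a4 (-0.35 without the 3 mice, and -0.35 to 1.26 with single mice left out), Eif4ebp1 (0.020 with array weights, 0.014 without the 3 mice, and -0.054 to 0.027 with single mice left out) and Per1 (0.023 without the 3 mice, and -0.16 to 0.085 with single mice left out), all on the log2 scale. The causes were not tested.

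No paired analysis was possible because each mouse has its own number and no number is shared between groups. The depth is unknown, so differences of 1 or 2 units in genes with low levels, such as Dbp, Psat1 and Trib3, have no counting error attached. Only 2 times were sampled, and no phase, peak or slope can be read from them.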
